A study of Mus musculus with 4 samples.

Results

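The proteasome is the protease complex that degrades proteins tagged with ubiquitin. Its core is a barrel of alpha and beta rings, in which Psmb5, Psmb6 and Psmb7 carry the cutting sites, and Psmb8, Psmb9 and Psmb10 can replace them after interferon signals. A regulatory cap sits on the barrel: the base unfolds substrates with ATPases (Psmc genes), and the lid removes ubiquitin. Other caps, the activators (Psme genes), open the barrel without ubiquitin, Psmf1 inhibits it, and chaperones (Psmg1 to Psmg4, Psmd5, Psmd9 and Psmd10) assist its assembly. In heart muscle this system turns over sarcomere and damaged proteins, and Nfe2l1 is known to drive transcription of the subunits when proteasome activity is low.

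The members are the genes named Psma to Psmg followed by a number, leaving out Psmb8 and Psmb9, with at least 50 unique molecular identifiers (UMIs, counted transcript molecules) over the 4 libraries. The symbol rule took 48 genes, of 32285 in the series, and 47 reached the floor of UMIs. Psmb11, a beta subunit known from thymus, was below it with 24 UMIs. The lowest member was Psma8, an alpha subunit known from testis, with 142 UMIs. By known role 8 members are core alpha subunits, 8 core beta, 9 base, 8 lid, 5 activators, 1 inhibitor and 7 assembly chaperones. The remaining 1, Psmc3ip, is a meiotic recombination factor that only shares the symbol, so 46 members belong to the proteasome.

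The 4 libraries came from left ventricle of wild-type male C57BL/6J mice, young (3 to 5 months) or aged (24 to 26 months), sham-operated or subjected to ischemia/reperfusion (I/R), in which the left anterior descending artery was closed for 45 min and reopened for 24 h. The sample labels call the sham tissue healthy and unaltered and the molecule nuclear RNA, where the methods give sham operations and single cells. How many mice gave each library is not stated in the sources used here. There was 1 library per condition, so no difference has a replicate check and none was tested. Intervals are 95% intervals and cover counting error only. They are exact, except for aged minus young differences of the I/R response and for classes relative to all members, where they are approximate.

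Depth rose from 25836175 UMIs in young sham through 39673199 in young I/R and 41356670 in aged sham to 66767829 in aged I/R, over 91124 to 102883 barcodes per library with medians of 244 to 675 UMIs. Levels are counts per 1000000 UMIs of the library (CPM), summed over all barcodes. Since 3′ UMI counts are not a scale on which genes can be ranked against each other, levels are compared for the same gene or class between libraries. Pairs of libraries shared 2366 to 2843 barcode sequences. All cardiomyocyte markers were detected in each library, and their summed level was 88933, 74984, 79179 and 98547 CPM. Here and below, 4 values in a row stand for young sham and young I/R, then aged sham and aged I/R. Over the same libraries 6 neutrophil markers summed to 15.7, 195, 25.3 and 168 CPM, 8 macrophage markers to 251, 172, 418 and 320 CPM, 8 fibroblast markers to 1218, 974, 1649 and 1210 CPM, and 4 atrial markers to 453, 1285, 926 and 457 CPM. The 8 endothelial markers summed to 1980, 2278, 2332 and 2179 CPM and 5 erythroid markers to 2567, 1957, 1691 and 1025 CPM. Single markers did not all follow their sums. In aged over young sham 1 of 4 atrial markers was higher. Of the 8 endothelial markers 2 were higher in young I/R over sham and 3 in aged over young sham, where their sum was higher. In aged over young I/R 6 of 8 were higher, where their sum was lower. In aged I/R over sham 5 of 10 cardiomyocyte, 3 of 8 fibroblast and 3 of 8 macrophage markers were higher. All barcodes were summed, so cell makeup and levels per cell cannot be told apart, and the part of these markers in the results below was not tested.

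The members together took 3004 CPM in young sham and 3550 in young I/R, and 3034 and 3446 in the aged pair. Both I/R libraries were above both sham libraries. I/R over sham, as a log2 CPM ratio, was 0.24 (0.23 to 0.25) in young and 0.18 (0.17 to 0.19) in aged ventricle. Aged over young was 0.01 (0.001 to 0.03) between the sham libraries and −0.04 (−0.05 to −0.03) between the I/R libraries. These ratios have to be read against the other genes of each library. Over the 15787 genes at the floor, the median log2 ratio was −0.52 in young I/R over sham, 0.09 in aged I/R over sham, and for aged over young −0.14 between shams and 0.46 between I/R libraries. The medians over the 47 members were 0.22, 0.08, 0.09 and −0.005. The members thus lay 0.74 above the median gene in young I/R over sham and 0.47 below it in aged over young I/R, and 0.01 below it in aged I/R over sham. Part of this goes with count level. Over the 7728 genes with at least 2000 UMIs, 39 of them members, the medians were −0.34, 0.10, −0.13 and 0.32 in the same order. The members lay nearer to these in young I/R over sham and in aged over young I/R.

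In young I/R over sham 34 of 47 members had a ratio above 1, where 23.5% of all genes did. In aged I/R over sham the count was 28 of 47, where 57.6% of all genes did, a share near that of the members. Few members moved far. At least 1.5-fold higher were 4 members in young I/R over sham, 3 in aged I/R over sham and, for aged over young, 2 between shams and 4 between I/R libraries, against 6.35%, 16%, 8.98% and 42.3% of all genes. At least 1.5-fold lower was 1 member in each comparison, against 46.5%, 8.85%, 19.7% and 3.81%. Measured from the median gene instead, 31, 3, 5 and 1 members were at least 1.5-fold higher, against 20.5%, 12.9%, 12.9% and 18.8% of all genes, and 1, 2, 1 and 19 were lower, against 23.8%, 11.7%, 13.7% and 15.6%. On that scale the members were thus mostly above the other genes in young I/R and many were below them in aged over young I/R. In aged over young, 28 members were above 1 between shams and 23 between I/R libraries, where 38.6% and 78.7% of all genes were. Scaled by the median of gene-wise ratios these counts were 36 and 5 members, against 50.5% and 50.1% of all genes, and without Gm42418, Malat1 and mitochondrial genes in the total 34 and 11, against 44.8% and 69.6%. The highest of the 4 libraries was young I/R for 19 members, aged I/R for 16, young sham for 8 and aged sham for 4. Among all genes these libraries were highest for 9.63%, 26.8%, 41.5% and 22.2%.

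**Figure D1:**
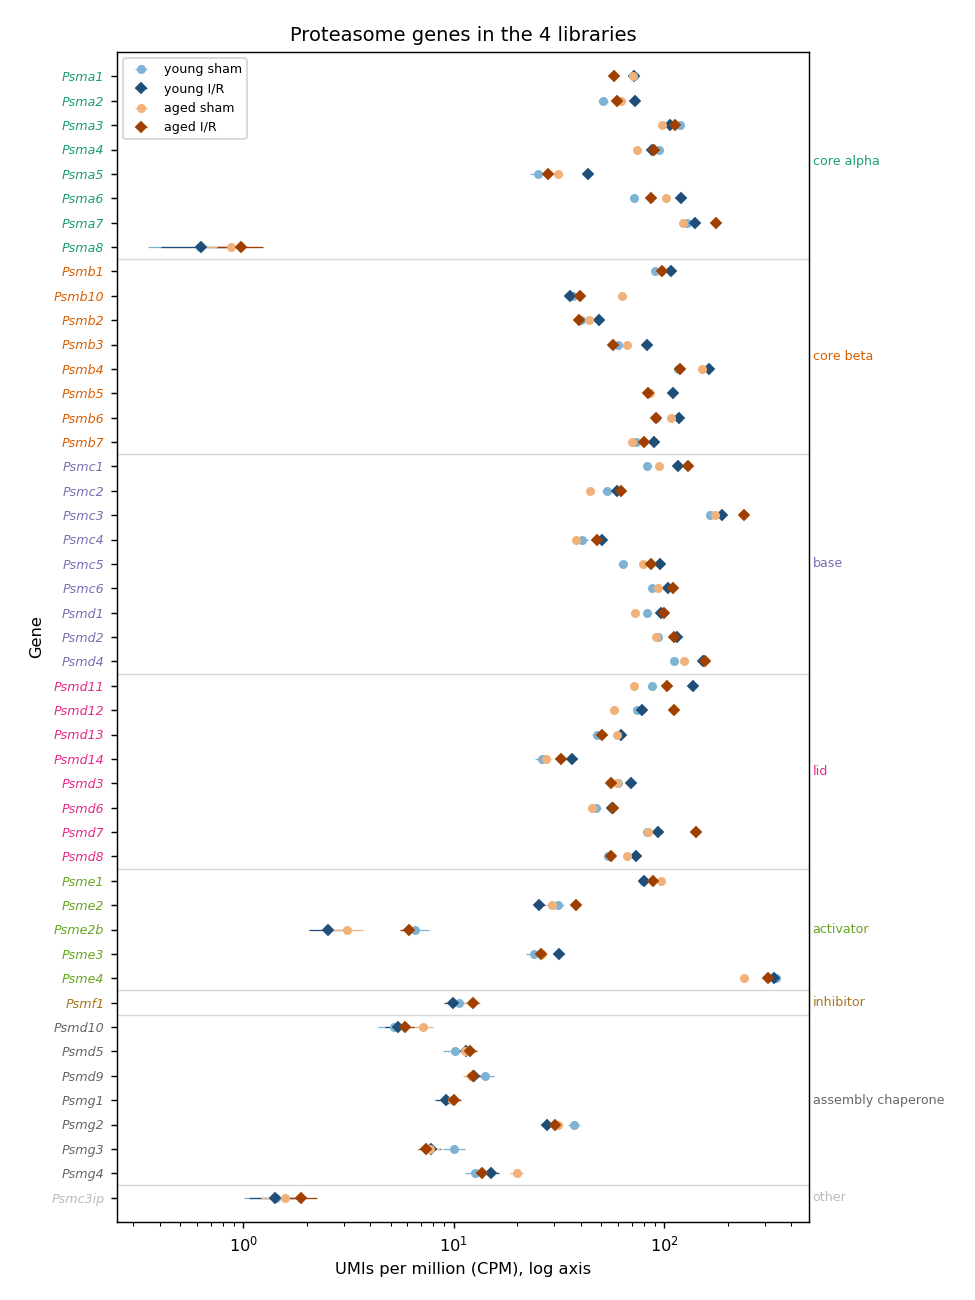
Level of each of the 47 members (rows, coloured by class) in the 4 libraries, in CPM on a log axis; horizontal bars are exact 95% Poisson intervals. Circles are sham and diamonds I/R; in the 9 base rows both diamonds lie to the right of the circle of the same age, and in 7 of the 8 core beta rows young I/R lies furthest to the right.

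The base was the class in which I/R and sham differed the same way in every gene and at both ages. Its summed level was 779 CPM in young sham and 976 in young I/R, and 812 and 1043 in the aged pair, with both I/R libraries above both shams. The log2 ratio was 0.32 (0.30 to 0.35) in young and 0.36 (0.34 to 0.38) in aged ventricle. All 9 members were higher in I/R at both ages with intervals above 0, and all 9 stayed above 0 under both other scalings of the libraries. Those scalings raise young ratios and lower aged ones, so only the aged ratios could have turned. Among all members 19 of 47 were higher in I/R at both ages, where 11.7% of all genes were.

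Psmc1, a subunit of the ATPase ring, was at 82.4 CPM in young sham and 115.7 in young I/R, and 94.6 and 129.9 in the aged pair. I/R over sham on the log2 scale was 0.49 (0.42 to 0.56) in young and 0.46 (0.40 to 0.51) in aged ventricle, close to each other. Psmc5, another ATPase, was at 63.5, 95.6, 79.4 and 86.6 CPM, and its ratio was 0.59 (0.51 to 0.67) in young and 0.12 (0.06 to 0.19) in aged. In CPM Psmc2 had the opposite weighting, with 53.5, 59.5, 44.3 and 62.4 CPM and ratios of 0.15 (0.06 to 0.25) and 0.49 (0.41 to 0.57). Relative to the median gene its ratios were 0.67 in young and 0.41 in aged, so that weighting turned. Psmc3 was at 164.8, 187, 175 and 240 CPM; the gene overlaps Slc39a13 on the other strand, and whether counting used strand is not stated. Psmc4 and Psmc6 had CPM ratios between 0.25 and 0.33 at both ages. Relative to the median gene these were 0.84 and 0.77 in young, and 0.24 and 0.16 in aged. Psmd2, a large scaffold of the base, was at 92.9, 114.7, 91.1 and 110.6 CPM, and its profile over the 4 libraries was the closest of all members to that of their sum. The other scaffold, Psmd1, was at 82.7, 96.5, 72.4 and 99.6 CPM. The ubiquitin receptor Psmd4 was at 111.5, 152, 124 and 156 CPM. For both genes the I/R libraries were above both shams.

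Core beta subunits showed a different order, in which the direction of I/R against sham depended on age. The class summed to 593 CPM in young sham and 754 in young I/R, and 684 and 609 in the aged pair. The log2 ratio was 0.35 (0.32 to 0.38) in young and −0.17 (−0.19 to −0.15) in aged ventricle. Both other scalings raise young ratios and lower aged ones, so these signs could not turn under them. The difference, aged minus young, was −0.52 (−0.55 to −0.48). In young ventricle 7 of 8 members were higher in I/R with intervals above 0, and in aged ventricle 5 of 8 were lower with intervals below 0. Among the 47 members 15 were higher in I/R in young and lower in aged ventricle, where 11.7% of all genes were. Scaled by the median of gene-wise ratios the count was 24, where 28.1% of all genes were, and without Gm42418, Malat1 and mitochondrial genes in the total it was 21, where 17.8% were. With CPM intervals clear of 0 at both ages, 10 members were higher in young and lower in aged I/R, where 5.67% of all genes were, and 4 were the reverse, where 27.3% were.

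Among the constitutive cutting subunits Psmb5 was at 84.7 CPM in young sham and 110.3 in young I/R, and 85.1 and 83.9 in the aged pair. Young I/R stood alone above the other libraries, with a log2 ratio over sham of 0.38 (0.31 to 0.46), against −0.02 (−0.08 to 0.04) in aged ventricle. Psmb6 was at 91.1, 117, 107.5 and 91.6 CPM, with log2 ratios of 0.36 (0.29 to 0.43) in young and −0.23 (−0.29 to −0.17) in aged. Psmb7 was at 73.0, 89.3, 70.5 and 80.4 CPM, and was higher in I/R at both ages, by 0.29 (0.21 to 0.37) and 0.19 (0.12 to 0.25) on the log2 scale. Aged over young I/R was below 0 for all of them, at −0.39 (−0.45 to −0.34), −0.35 (−0.41 to −0.30) and −0.15 (−0.21 to −0.09), where the median gene was at 0.46. Between the sham libraries aged over young was 0.01 (−0.07 to 0.08) for Psmb5, 0.24 (0.17 to 0.31) for Psmb6 and −0.05 (−0.14 to 0.03) for Psmb7.

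Of the structural beta subunits, Psmb4 was at 116.6 CPM in young sham and 163 in young I/R, and 151 and 118.7 in the aged pair. It was among the 3 lowest members in aged I/R over sham, at −0.35 (−0.40 to −0.30), against 0.48 (0.42 to 0.54) in young. Psmb3 was at 60.1, 82.7, 66.2 and 57.2 CPM, and aged over young I/R was −0.53 (−0.60 to −0.46). Psmb2 was at 40.4, 49.1, 44.0 and 39.3 CPM and Psmb1 at 89.8, 107.6, 96.7 and 97.5 CPM. In all of these genes young I/R was the highest library.

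Psmb10, the inducible cutting subunit that stays in the member list, was at 36.7 CPM in young sham and 35.5 in young I/R, and 62.6 and 39.9 in the aged pair. Aged sham stood alone above the others. Aged over young sham was 0.77 (0.66 to 0.88), the highest of the 47 members, and aged I/R over sham −0.65 (−0.73 to −0.57), the lowest. Young I/R over sham was −0.05 (−0.17 to 0.07), and aged over young I/R 0.17 (0.07 to 0.26), a direction that turned after scaling by the median gene. Its companions outside the member list, which lie in the major histocompatibility region, were read beside it. Psmb8 was at 17.0, 10.3, 29.6 and 25.1 CPM, with both aged libraries above both young ones. Psmb9 was at 7.08, 2.17, 8.80 and 9.36 CPM, lowest in young I/R. Their log2 ratios of aged over young sham were 0.80 (0.64 to 0.96) and 0.31 (0.05 to 0.58). In CPM Psmb10 and Psmb8 were highest in aged sham and lowest in young I/R. The macrophage and fibroblast marker sums shared this and Psmb9, highest in aged I/R, did not. For Psmb10 the young libraries were not distinguishable at this depth, and relative to the median gene young I/R over sham was 0.47.

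**Figure D2:**
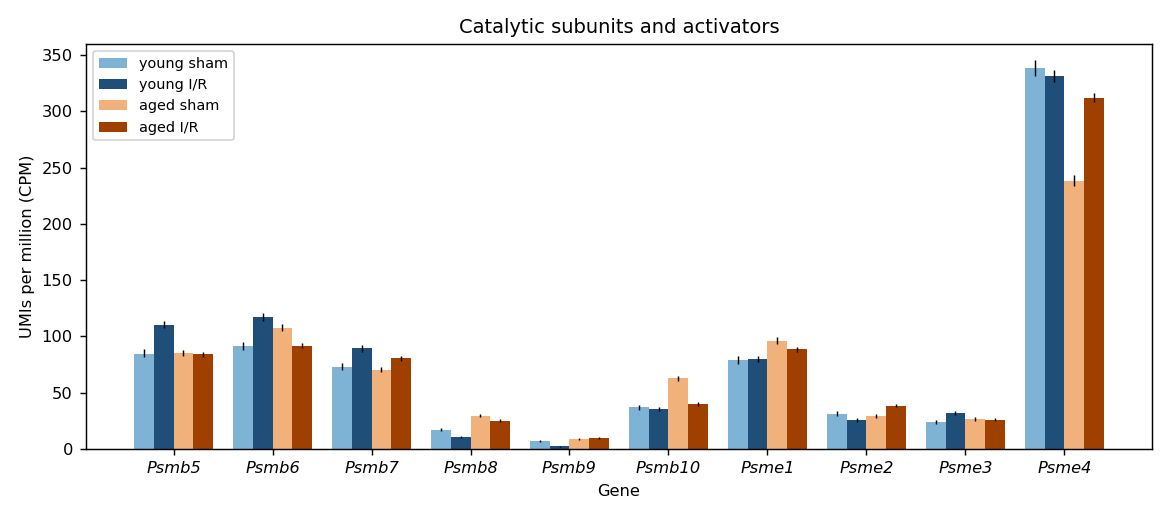
Bars give the level (CPM, axis from 0) of the constitutive cutting subunits Psmb5 to Psmb7, the inducible ones Psmb8 to Psmb10 and the activators Psme1 to Psme4 in each of the 4 libraries, with exact 95% Poisson intervals. Young I/R is highest for Psmb5, Psmb6 and Psmb7, aged sham is highest for Psmb8 and Psmb10, and Psme4 is lowest in aged sham at 238 CPM.

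The core alpha subunits did not move as a block. They summed to 562, 642, 562 and 611 CPM, and in each I/R comparison some members were above 0 and some below. Psma5 was at 24.96 CPM in young sham and 43.3 in young I/R, and 31.1 and 28.1 in the aged pair, and Psma6 at 71.6, 120, 102 and 86.5 CPM. Young I/R was the highest library for both. Their ratios in young I/R over sham, 0.79 (0.66 to 0.93) and 0.74 (0.67 to 0.82), were the highest of all members, and both were lower in aged I/R than aged sham, at −0.15 (−0.25 to −0.04) and −0.24 (−0.30 to −0.18). In aged over young I/R both were among the 3 lowest, at −0.62 (−0.72 to −0.53) and −0.47 (−0.53 to −0.42), and Psma6 was among the 3 highest in aged over young sham at 0.51 (0.43 to 0.59).

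In CPM Psma7 went the other way, at 128.6, 139, 122.6 and 176 CPM. Its ratios of I/R over sham were 0.11 (0.05 to 0.18) in young and 0.52 (0.48 to 0.57) in aged ventricle. Relative to the median gene they were 0.63 and 0.44, so the larger ratio was then the young one. Psma3, at 119, 106.9, 97.5 and 112 CPM, and Psma4, at 94.6, 87.6, 74.4 and 89.7 CPM, were highest in young sham and lowest in aged sham. In CPM both were lower in I/R in young ventricle and higher in aged, but the young direction turned for both after scaling by the median gene. Psma2 was at 51.2, 72.6, 62.4 and 59.6 CPM, highest in young I/R like most beta subunits. AW209491, with 1446 UMIs, lies within it on the same strand, and how reads were divided is not known. Psma1 was at 71.5, 71.4, 70.6 and 57.5 CPM, and in CPM only aged I/R stood apart, below the rest. Relative to the median gene its young I/R over sham ratio was 0.52. Psma8 stayed between 0.62 and 0.97 CPM, and its ratio of aged over young I/R, 0.63 (−0.06 to 1.35), was not distinguishable from 0 at this depth.

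The lid summed to 481, 607, 471 and 607 CPM, again with both I/R libraries above both shams. Its log2 ratio was 0.34 (0.31 to 0.37) in young and 0.37 (0.34 to 0.39) in aged ventricle, but the aged value came from only part of the class. In aged I/R over sham 5 of 8 members were higher and 3 were lower, all with intervals clear of 0. The share of higher members was near that of all genes, of which 57.6% were higher. Psmd12 was at 74.5 CPM in young sham and 78.6 in young I/R, and 57.6 and 110.5 in the aged pair, with ratios of 0.08 (−0.01 to 0.16) in young and 0.94 (0.87 to 1.008) in aged. Psmd7, the partner of the deubiquitinase Psmd14, was at 83.1, 93.0, 84.0 and 142 CPM. In CPM aged I/R stood apart from the other libraries for both genes. Relative to the median gene, aged over young I/R fell from 0.49 to 0.03 for Psmd12 and from 0.61 to 0.15 for Psmd7. For Psmd7 the ratio was 0.76 (0.70 to 0.81) in aged I/R over sham and 0.61 (0.56 to 0.67) in aged over young I/R.

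Psmd11, a lid scaffold, was at 87.2, 137, 72.1 and 103 CPM, with ratios of 0.65 (0.58 to 0.72) in young and 0.52 (0.46 to 0.58) in aged I/R over sham. Psmd14 itself, which removes ubiquitin chains, was at 26.4, 36.5, 27.4 and 32.2 CPM, and Psmd6 at 47.2, 56.7, 45.3 and 57.2 CPM, with both I/R libraries highest for each. The lower members in aged I/R were Psmd13 (48.1, 62.5, 59.4 and 50.5 CPM), Psmd8 (54.2, 73.3, 66.3 and 55.7 CPM) and Psmd3 (60.1, 69.6, 59.3 and 56.0 CPM). For all of them the highest library was young I/R. Psmd13 overlaps Sirt3 on the other strand, so its reads could not be separated with certainty. Further members overlap other genes, among them Psmb7 with Nek6 and Psme1 with Emc9, both on the other strand.

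**Figure D3:**
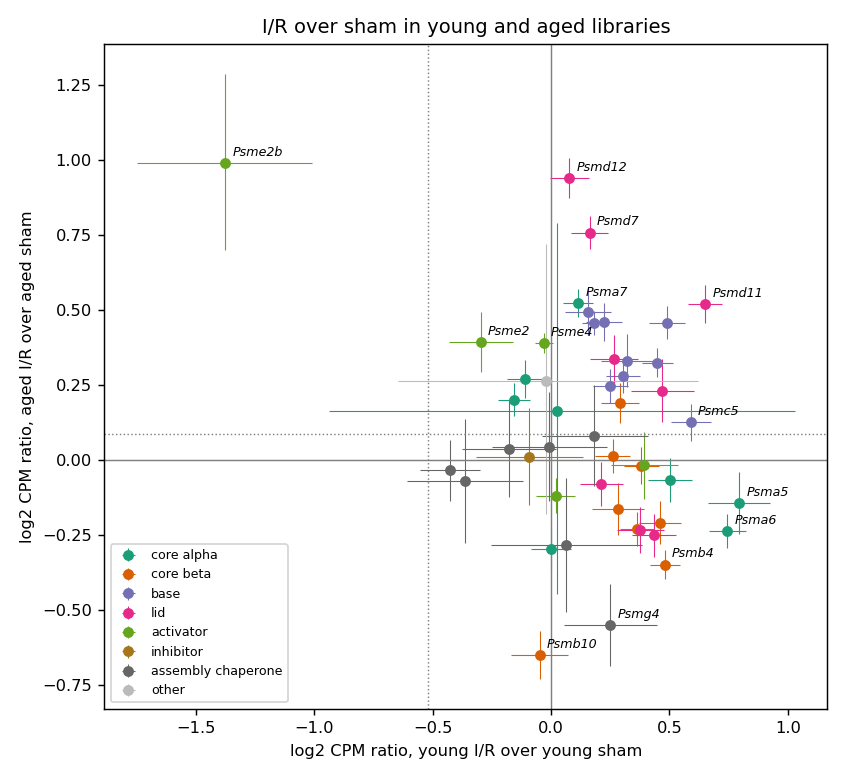
Each point is a member, with its log2 CPM ratio of I/R over sham in young (x axis) and aged (y axis) ventricle; lines through points are exact 95% intervals, solid lines mark 0 and dotted lines the median of 15787 genes (−0.52 and 0.09). The 9 base subunits all lie to the upper right of 0, 5 of 8 core beta subunits lie in the lower right, and Psme2b is far from the rest in the upper left.

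The activators summed to 479 CPM in young sham and 471 in young I/R, and 393 and 471 in the aged pair, so in CPM only aged sham stood apart. Their young I/R over sham ratio of −0.03 turned to 0.48 after scaling by the median of gene-wise ratios and to 0.12 without Gm42418, Malat1 and mitochondrial genes in the total. Psme4, a large single-chain cap known from DNA repair and sperm development, made up most of this sum, with 339, 332, 238 and 312 CPM. Its ratio was −0.03 (−0.07 to 0.01) in young I/R over sham, 0.39 (0.35 to 0.42) in aged I/R over sham, and for aged over young −0.51 (−0.55 to −0.46) between shams and −0.09 (−0.12 to −0.06) between I/R libraries. Without Psme4 the other 4 activators summed to 141, 139, 154 and 159 CPM. Their aged over young sham ratio was then 0.14 (0.08 to 0.20), where the class with Psme4 was at −0.29 (−0.32 to −0.25), and the aged I/R over sham ratio 0.04 (−0.01 to 0.08) against 0.26 (0.23 to 0.29). The class direction between the sham libraries and its size in aged I/R therefore rested on 1 gene.

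Psme1 and Psme2 form the interferon-induced cap. Psme1 was at 78.7, 79.8, 95.97 and 88.4 CPM, with both aged libraries above both young ones, and log2 ratios of 0.02 (−0.06 to 0.10), −0.12 (−0.18 to −0.06), 0.29 (0.21 to 0.36) and 0.15 (0.09 to 0.21) in young I/R and aged I/R over sham, and for aged over young between shams and between I/R libraries. Psme2 was at 31.3, 25.5, 29.1 and 38.2 CPM, lowest in young I/R and highest in aged I/R, with log2 ratios of −0.30 (−0.43 to −0.16), 0.39 (0.29 to 0.49), −0.10 (−0.23 to 0.03) and 0.59 (0.48 to 0.69). Scaling by the median gene turned the sign of Psme1 in aged over young I/R and of Psme2 in young I/R over sham and aged over young sham. Psme2b, a near copy of Psme2, was at 6.54, 2.52, 3.10 and 6.14 CPM. It lies within Gm12185 and overlaps the edge of 9930111J21Rik1, both on the same strand. Its ratios were the most extreme of all members, at −1.38 (−1.75 to −1.01), 0.99 (0.70 to 1.29), −1.08 (−1.42 to −0.74) and 1.28 (0.97 to 1.61). How reads were divided between Psme2, Psme2b and the overlapping genes is not known, so these values are uncertain. Psme3, the nuclear cap subunit, was at 24.0, 31.5, 26.2 and 25.9 CPM, and only young I/R stood above the rest, with log2 ratios of 0.39 (0.25 to 0.53), −0.02 (−0.13 to 0.09), 0.13 (−0.01 to 0.28) and −0.28 (−0.39 to −0.17).

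The inhibitor Psmf1 was at 10.5, 9.88, 12.2 and 12.3 CPM. In I/R over sham its CPM ratio was −0.09 (−0.32 to 0.14) in young and 0.01 (−0.15 to 0.17) in aged ventricle, not distinguishable from 0 at this depth. Relative to the median gene the young ratio was 0.43. Aged over young was 0.22 (0.001 to 0.43) in sham and 0.32 (0.14 to 0.50) in I/R, the latter below 0 after scaling by the median gene. The 7 assembly chaperones summed to 98.4, 89.0, 99.0 and 91.6 CPM, so they were not higher in I/R in CPM at either age, at −0.14 (−0.22 to −0.07) and −0.11 (−0.17 to −0.06). The young value turned to 0.36 after scaling by the median gene. Psmg2 and Psmg3 were 2 of the 3 lowest members in young I/R over sham, at −0.42 (−0.55 to −0.30) and −0.36 (−0.61 to −0.12), and both turned above 0 after scaling by the median gene. Psmg2 was at 37.2, 27.7, 31.1 and 30.4 CPM and Psmg3 at 10.0, 7.79, 7.74 and 7.37 CPM. For both young sham was the highest library, and Psmg3 was also among the 3 lowest in aged over young sham, at −0.37 (−0.61 to −0.13).

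Psmg4 was at 12.7, 15.0, 19.9 and 13.6 CPM and resembled Psmb10: aged sham was highest, with 0.65 (0.46 to 0.84) over young sham, and aged I/R over sham was −0.55 (−0.69 to −0.41). Psmd10 was at 5.19, 5.42, 7.13 and 5.86 CPM, also highest in aged sham. Psmg1, Psmd5 and Psmd9 ranged from 9.12 to 14.1 CPM with no interval of a CPM ratio of I/R over sham clear of 0. Relative to the median gene their young ratios were 0.51, 0.70 and 0.34. Psmc3ip stayed between 1.41 and 1.89 CPM.

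Set against the sum of all members, the shares of the classes shifted by less than 1.5-fold in every comparison. Core genes held 38.4% of member UMIs in young sham and 39.3% in young I/R, and 41.0% and 35.4% in the aged pair. Base genes held 25.9%, 27.5%, 26.8% and 30.3%, and activators 15.9%, 13.3%, 12.9% and 13.7%. Lid genes ranged from 15.5% in aged sham to 17.6% in aged I/R. Relative to all members the core was at 0.03 (0.01 to 0.05) in young I/R over sham and −0.21 (−0.23 to −0.20) in aged I/R over sham on the log2 scale. The base was at 0.08 (0.06 to 0.11) and 0.18 (0.16 to 0.20), the lid at 0.10 (0.07 to 0.13) and 0.18 (0.16 to 0.21), and the activators at −0.27 (−0.30 to −0.23) and 0.08 (0.05 to 0.10). Aged over young sham gave 0.09 (0.07 to 0.12) for the core, 0.04 (0.02 to 0.07) for the base, −0.04 (−0.07 to −0.01) for the lid and −0.30 (−0.33 to −0.27) for the activators. In aged over young I/R the same classes were at −0.15 (−0.17 to −0.14), 0.14 (0.12 to 0.16), 0.04 (0.02 to 0.07) and 0.04 (0.02 to 0.07). Such ratios within a library do not depend on how the library total was scaled. Differences between the ages in the CPM ratio of I/R over sham do depend on it. In CPM, aged minus young, the I/R response of the core differed by −0.30 (−0.33 to −0.28) on the log2 scale. Core beta was at the −0.52 given above and core alpha at −0.07 (−0.11 to −0.03). The activators differed by 0.29 (0.24 to 0.33), or 0.05 (−0.02 to 0.13) without Psme4, the base by 0.04 (0.01 to 0.07) and the lid by 0.03 (−0.01 to 0.07). Scaled by the median of gene-wise ratios, the activators were at 0.48 in young and 0.16 in aged I/R over sham. The base was then at 0.83 and 0.26, the lid at 0.84 and 0.26 and core alpha at 0.70 and 0.02. For activators, base and lid the order of the ages thus turned. Without Gm42418, Malat1 and mitochondrial genes in the total it turned for base and lid only.

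**Figure D4:**
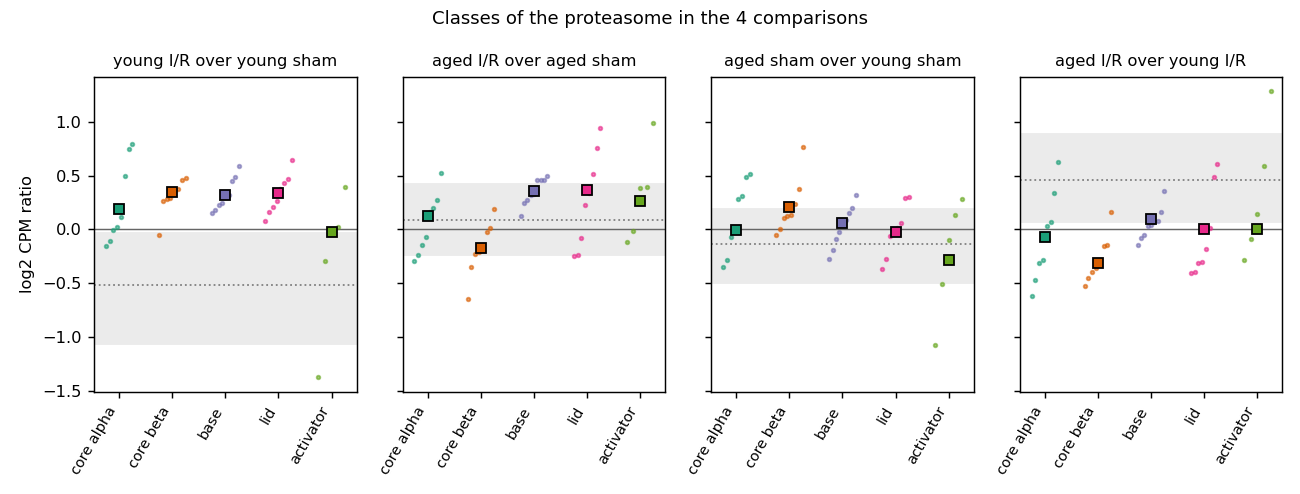
Squares give the log2 CPM ratio of the summed UMIs of each class in the 4 comparisons, with exact 95% intervals that are mostly smaller than the symbol; small points are the members. The grey band is the middle 50 percent of 15787 genes and the dotted line their median. Core beta is at 0.35 in young and −0.17 in aged I/R over sham, while base and lid lie between 0.32 and 0.37 in both.

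Of the 33 other genes of the ubiquitin and proteasome pathway, 32 were found by symbol. At least 1.5-fold higher in young I/R over sham were 2, the ubiquitin genes Ubb and Rps27a (6.35% of all genes), and 3 were lower, Psmb8, Psmb9 and the ubiquitin ligase Ube3c (46.5% of all genes). In aged I/R over sham 0 of 32 were higher and 0 lower, against 16% and 8.85% of all genes. Psmb8 and Rps27a were that much higher in aged over young sham (8.98% of all genes), and Nfe2l1, Psmb8 and Psmb9 in aged over young I/R (42.3% of all genes). Measured from the median gene, Psmb8 and Ube3c no longer passed in young I/R over sham, at −0.20 and −0.09, nor Nfe2l1 in aged over young I/R, at 0.21. On that scale 16 of the 32 were higher and 1 was lower in young I/R over sham, and 2 were higher and 13 lower in aged over young I/R, where 20.5%, 23.8%, 18.8% and 15.6% of all genes were. Ubb was at 217 CPM in young sham and 417 in young I/R, and 244 and 280 in the aged pair, so young I/R stood apart. Nfe2l1, the transcription factor named above, was at 273, 227, 261 and 362 CPM, lowest in young I/R and highest in aged I/R. In young I/R over sham it was at −0.27 in CPM but at 0.25 relative to the median gene, so that direction turned. Further subunits whose symbols the rule does not take differed from each other: Adrm1, a ubiquitin receptor of the base, was at 37.0, 51.8, 36.0 and 45.6 CPM, like the base genes, and Sem1, a small lid subunit, at 147, 161, 176 and 118 CPM. Pomp, the chaperone of beta ring assembly, was at 82.3, 105, 112 and 89.4 CPM, higher in I/R in young and lower in aged ventricle like the beta genes. The muscle ubiquitin ligases Trim63 (249, 189, 202 and 196 CPM) and Fbxo32 (151, 182, 151 and 141 CPM) differed in young I/R over sham, at −0.40 and 0.27. Both were slightly lower in aged I/R over sham, at −0.05 and −0.10. Relative to the median gene both were above 0 in young, at 0.12 and 0.79, and below 0 in aged, at −0.13 and −0.19.

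Ribosomal protein genes were read beside the members for scale. The median log2 ratio over 94 genes with cytosolic ribosomal protein symbols, a pattern that also takes some kinases, was 0.39 in young I/R over sham, −0.16 in aged I/R over sham and 0.50 in aged over young sham. The core beta medians were 0.33, −0.19 and 0.13, and the base medians 0.30, 0.33 and 0.08. The 78 mitochondrial ribosomal protein genes were at −0.04, −0.05 and −0.05. In young I/R over sham 74 of these 78 lay above the median gene, as did 87 of the 94 and 46 of the 47 members. Both lists thus shared that position with the members. In aged over young I/R the medians were −0.08 for the cytosolic and −0.10 for the mitochondrial list, −0.34 for core beta and 0.05 for the base. The 5 genes whose profile over the 4 libraries was closest to that of the summed members, among 7689 genes with at least 2000 UMIs, were Jak2, Rab2a, Fdx1, Ube2l3 and Zdhhc5. Their distances in log2 CPM were 0.03 to 0.05, where the median member was at 0.31 and the median gene at 0.60.

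The members lie on 16 chromosomes, with 10 on chromosome 11 and 5 on chromosome 14. Promoter windows of RefSeq (GRCm38.p6, 250 bases before to 50 after the start) were given for 39 members. The core of the antioxidant response element, TGACNNNGC on either strand, to which Nfe2l1 and its relatives are known to bind, was in 6 of 39 members (15.4%) and in 13.99% of 27025 genes. The share in the members was therefore close to that of all genes. Psmd9 and Psme4 also held it. The stretches of 4 members from the classes described above are printed, each 5′ to 3′ on the strand of its gene with the matched letters in capitals. The matches start 47 bases before the start site in Psmb5, 9 in Psmb6, 227 in Psmc6 and 247 in Psmd12.
Psmb5, chr14:54618024-54618052, minus strand: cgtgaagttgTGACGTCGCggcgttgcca
Psmb6, chr11:70525338-70525356, plus strand: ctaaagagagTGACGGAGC
Psmc6, chr14:45329587-45329615, plus strand: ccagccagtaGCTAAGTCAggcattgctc
Psmd12, chr11:107479278-107479299, plus strand: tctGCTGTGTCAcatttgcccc

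In Psmb5 and Psmb6 the match reads along the gene, and in Psmc6 and Psmd12 it is on the opposite strand, so the capitals show its reverse complement. In CPM these 4 genes had unlike profiles, with young I/R highest for Psmb5 and Psmb6 and aged I/R highest for Psmc6 and Psmd12. For Psmc6 this rested on the scaling: aged over young I/R was 0.08 in CPM but −0.38 relative to the median gene. For Psmd12 the latter was 0.03. The CCAAT box was in 13 of 39 members (33.3%) and in 41.1% of all genes, and by class in 5 of 7 core alpha members with a window. A match only says that these letters are in the window.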

How the data were processed

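Single-cell suspensions of left ventricle were sequenced on the 10x Chromium system with 3′ chemistry, and the authors aligned the reads with Cell Ranger 6.0.2 to mm10 and deposited filtered matrices. The deposited values are raw UMI counts for every gene in every barcode, not normalized; use of introns and of strand is not given in the sources used here. Introns and nuclear RNA would favour long genes, and filtering sets which barcodes enter. Here counts were summed over all barcodes of a library and divided by its total (CPM). Each condition is 1 library, so no test was run. Sums have exact Poisson intervals and ratios exact conditional binomial intervals. Aged minus young differences of the I/R response have approximate intervals from summed Poisson variances on the log scale. For classes relative to all members, the summed UMIs of all members took the place of the library total. The class was thus part of its own denominator, and these intervals are approximate. Ratio intervals were run on simulated Poisson counts, the model they assume. That run checks the code and cannot speak to variation between libraries, animals or barcodes. A count beside a list used at least 1.5-fold and genes with at least 50 UMIs. Positions are from GENCODE M21 (GRCm38). Every member is named; ratios with intervals are given for cutting subunits, activators, the inhibitor and the 3 highest and 3 lowest members of each comparison, and a few more were added after their values were seen. Members and lists were chosen with earlier results of these data known. Alternatives were another scaling, denominator, floor, barcode set and medians. Python 3.11.15, numpy 2.4.6, scipy 1.17.1, pandas 2.3.3 and matplotlib 3.10.9 were used. Depth per library is given in the report; cells were not clustered and doublets not sought.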

Additional observations from a re-analysis of the deposited data

Results flagged for a closer look

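The I/R over sham ratio had opposite signs in young and aged ventricle, with intervals clear of 0 at both ages, for 14 genes, 10 of them higher in young and lower in aged (5.67% of all genes) and 4 the reverse (27.3% of all genes), and for 3 groups; with 1 library per condition the differences were not tested. The groups are nested, since the core holds core beta, which holds Psmb5, Psmb6 and Psmb7. In aged I/R over sham, on the log2 scale, core alpha was at 0.12 and core beta at −0.17. Psmb5, Psmb6 and Psmb7 were at −0.02, −0.23 and 0.19, only Psmb6 with an interval below 0. On the log2 scale in CPM, aged minus young was −0.30 for the core, −0.52 for core beta and −0.39 for Psmb5, Psmb6 and Psmb7 together. It was −0.94 for Psma5, −0.98 for Psma6, −0.45 for Psmb2, −0.67 for Psmb3, −0.83 for Psmb4 and −0.59 for Psmb6. In the lid it was −0.61 for Psmd13, −0.29 for Psmd3 and −0.69 for Psmd8, and among the chaperones −0.80 for Psmg4. It was above 0 for Psma3 (0.36), Psma4 (0.38), Psme2 (0.69) and Psme2b (2.36). The signs stayed opposite under all 3 scalings for 11 of the 14 genes, the exceptions being Psma3, Psma4 and Psme2. Both other scalings raise the young ratios and lower the aged ones. The 10 genes higher in young and lower in aged, and the 3 groups, therefore could not turn. Of the 4 reverse genes, which could, only Psme2b kept its signs. The young sham library was the shallowest and the aged I/R library the deepest, and the part of depth in these differences was not tested. Psmb11, which the floor left out, had 24 UMIs over the 4 libraries.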

How the results depend on the processing

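Each condition is 1 library of unequal depth, which limits every comparison, and no library could be left out. No paired analysis was possible because each condition has 1 library. Scaling by the median of gene-wise ratios shifted all log2 ratios by 0.50, −0.10, 0.14 and −0.46 in young and aged I/R over sham and for aged over young, first between shams and then between I/R libraries. The summed members were then at 0.75, 0.082, 0.16 and −0.50, members at least 1.5-fold higher numbered 30 in young I/R, 5 in aged over young sham, 1 in aged over young I/R, and 2 were lower in aged I/R over sham and 19 in aged over young I/R. With Gm42418, Malat1 and mitochondrial genes out of the total, the sums were at 0.39, 0.093, 0.090 and −0.20, with 10 members higher in young I/R and 1 in aged over young I/R, and 2 and 4 lower in aged I/R over sham and in aged over young I/R. With barcodes of at least 200 detected genes, the sums were at 0.29 in young I/R over sham, 0.052 for aged over young in sham and −0.054 in I/R libraries, 7 members were higher in young I/R, and core, base, lid and activators relative to all members were at 0.063, 0.11, 0.045 and −0.31 in young I/R over sham and 0.12, 0.083, −0.098 and −0.34 in aged over young sham. Shares of all genes at least 1.5-fold higher or lower are given above for CPM and for the distance from the median gene only. The member counts under the changed total and the changed barcode set therefore cannot be read against all genes. With barcodes of 200 to 1000 UMIs, the sums were at 0.25, 0.21, 0.028 and −0.021. With medians over members in place of sums, the relative core was at 0.063 in young I/R over sham, core, base and activators at −0.19, 0.25 and 0.31 in aged I/R over sham, and core, base, lid and activators at 0.043, −0.0033, −0.089 and −0.19 for aged over young in sham and −0.29, 0.050, −0.24 and 0.15 in I/R libraries. The base in aged over young sham and the lid in aged over young I/R so changed sign. Leaving out Psme4, chosen after the data were seen, put the relative activators at −0.13 in aged I/R over sham and 0.068 in aged over young sham, both with the sign turned, and 0.23 in aged over young I/R. A background of 7728 genes with at least 2000 UMIs, also chosen afterwards, had 28.4% of genes above 0 in young I/R over sham and 59.3% in aged, but 4.28% in place of 8.98% at least 1.5-fold higher in aged over young sham, where 2 of 47 members were, and 5.75% in place of 8.85% lower in aged I/R over sham. A floor of 200 UMIs left the 8 counts within 1.5 times. The cause of these moves was not tested.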
